A study of Mus musculus with 11 samples.

Results

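Dexamethasone-treated and chronically insulin-treated 3T3-L1 adipocytes were compared directly with each other: 3 DEX arrays against 2 CI arrays, which are 5 of the 11 arrays in the series. The arrays were taken by their sample titles, and genes by the probe sets with exactly 1 gene symbol in the platform annotation, which were 34945 of 45101 probe sets and stood for 18193 genes. 3T3-L1 is a mouse fibroblast line that is differentiated in culture into fat cells, and every group was made from it. The DEX cells received 20 nM dexamethasone, a synthetic glucocorticoid, in 0.01% ethanol, renewed on alternate days over 8 days. The CI cells received 10 nM insulin in 4 additions, 3 on the first day and the last the next morning. The agents therefore differed in dose and in duration, and ethanol is stated for the DEX cells and not for the CI cells. The comparison is thus of 1 whole regimen with the other, carrier included. Starts were staggered so that all cells were harvested at the same age after differentiation. The labels present both regimens as ways of making adipocytes insulin resistant. The 3 control arrays carry the treatment label none, and whether those cells received ethanol is not stated. The 3 TNF arrays (2 ng/ml tumour necrosis factor for 4 days) entered only the estimate of the spread between arrays. The labels do not say that the arrays of a group came from separate cultures, so p-values reflect only how much these samples varied, and that variation may be technical.

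Glucocorticoids bind the glucocorticoid receptor, a transcription factor that moves to the nucleus, binds DNA at glucocorticoid response elements and also restrains inflammatory and interferon signalling. In fat cells they are known for promoting differentiation and, over longer exposure, for opposing insulin. Insulin acts through its receptor, the IRS proteins, AKT and the ERK pathway, turning on sterol, fatty acid and glycolytic genes and keeping FOXO transcription factors out of the nucleus, while prolonged insulin also lowers its own receptor.

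The 5 arrays were alike in overall brightness, with median intensities of 128.1 to 129.2. Spearman correlations between arrays were 0.996 to 0.9972 within DEX and 0.9976 within CI. The ratio of 3' to 5' actin probe sets, a sign of RNA integrity, was 1.49, 1.73 and 1.50 in DEX and 1.82 and 1.43 in CI, so the groups overlapped. The mean of DEX lay above that of CI at 18 of 18 hybridization spike probe sets, with a median log2 difference of 0.19, but the arrays of the groups overlapped at all but 2, and the part of this shift in small differences between the groups was not tested. The 3' probe sets for spiked bacterial RNAs of the Dap, Lys, Thr and Phe genes were brighter in DEX replicate 2 than in any other array.

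The cells carried the markers of adipocytes in both groups, although 11 of 22 tested members of the marker list were lower in DEX and 3 higher (median -0.18), Car3 by the most (log2 -3.19). Adiponectin (Adipoq), the main protein hormone of fat cells, read 21661, 21184 and 22089.9 in DEX and 21587 and 21507 in CI, near the upper end of the scale where differences are compressed (log2 difference 0.01, adjusted p = 0.95). Fabp4, the fatty acid carrier of adipocytes, read 23167, 22501 and 23317 in DEX and 21997 and 22363 in CI. It was also near the upper end of the scale, since 22501 was the highest intensity in DEX replicate 2. Cidec, Lpl and Cd36 likewise did not pass the test, with log2 differences of 0.01, -0.05 and -0.09. The macrophage and leukocyte markers had 5 of 19 measured members below the filter on dim genes, namely Ptprc and Itgam, which define leukocytes and myeloid cells, and Cd163, Mrc1 and C1qb. Their summed intensity over the 14 tested members was 4335 to 4769 in DEX, 4934 to 5270.2 in CI and 5613 to 5834 in control.

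Limma (log2 of intensity plus 16, all 11 arrays sharing an estimate of the spread) was fitted to 15626 genes bright enough to test. At a Benjamini-Hochberg adjusted p under 0.05, 5302 genes differed between DEX and CI, or 33.9% of those tested. Of these, 2663 (17.0%) were higher in DEX and 2639 (16.9%) were lower, and the median over all tested genes was 0.005 on the log2 scale. Most differences were small, since 4039 of the 5302 were under 1.5-fold. Among genes past 2-fold, 200 were higher (1.28% of tested genes) and 234 were lower (1.50%), and past 4-fold there were 32 and 42. The 3 DEX arrays and the 2 CI arrays did not overlap at 5248 of the 5302 genes, against 52.7% of all tested genes. With each probe set taken on its own, another probe set of the gene passed in the same direction for 1636 of 2945 genes that passed and had several, and in the opposite direction for 184. The shares of 17.0% higher and 16.9% lower are the background for the counts of every gene list described here. Of 219 such genes past 2-fold, 1 (Sulf2, named after its values were seen) had a probe set that passed the other way.

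**Figure D1:**
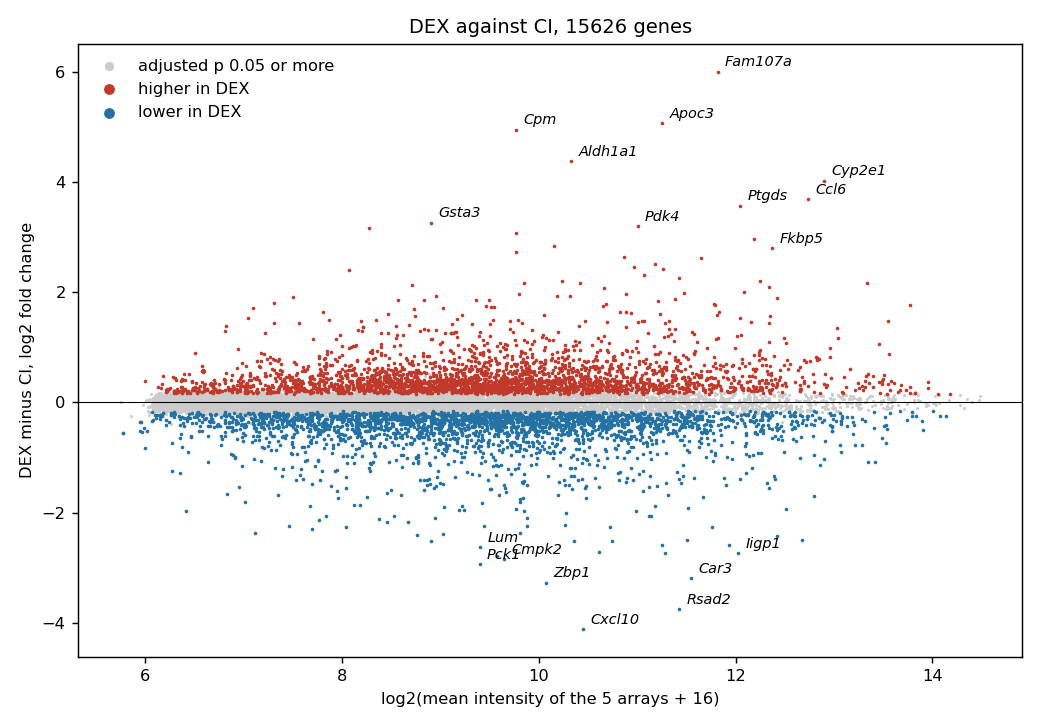
Log2 fold change of DEX over CI (vertical axis) against log2 of the mean intensity of the 5 arrays plus 16 (horizontal axis) for the 15626 tested genes, each a point. Red points (2663) were higher in DEX, blue points (2639) were lower and grey points did not pass. The changes past 4-fold are few, with Fam107a at the top and Cxcl10 at the bottom.

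The gene furthest apart was Fam107a, which encodes an actin-associated stress protein known as glucocorticoid-responsive. It read 5856, 6301 and 5666 in the DEX arrays, 80.5 and 73.1 in the CI arrays and 103, 103 and 132 in control. This is a 64.2-fold difference (log2 6.004, SE 0.12, adjusted p = 3.6e-14). Apoc3, an apolipoprotein that slows the clearance of triglyceride-rich particles, read 3651, 3889 and 4408 in DEX and 101 and 104 in CI (log2 5.07, SE 0.08, adjusted p = 4.0e-15). Cpm encodes carboxypeptidase M, a membrane enzyme that trims basic residues from peptides, and read 1413, 1279 and 1537 in DEX against 31.6 and 28.3 in CI (log2 4.95, SE 0.08, adjusted p = 4.0e-15). Cpm was below the limit for dim genes in CI, where the constant added before taking logs makes the fold change an understatement. Aldh1a1, which makes retinoic acid from retinaldehyde, read 2207, 1948 and 2021 in DEX and 89.4 and 78.1 in CI (log2 4.38, SE 0.10, adjusted p = 1.3e-13). Cyp2e1, a cytochrome P450 that oxidises ethanol and other small molecules, was already measurable without dexamethasone, at 721 and 750.5 in CI, and read 11683, 12388 and 12557 in DEX (log2 4.02, SE 0.10, adjusted p = 4.1e-13).

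The chemokine Ccl6 read 11749, 10942 and 9793 in DEX, 896 and 750.3 in CI and 1973, 1627 and 997 in control (log2 3.69, SE 0.19, adjusted p = 1.1e-09). The control arrays lay between the treated groups for this gene. Ptgds, the lipocalin-type prostaglandin D synthase, read 6295, 7479 and 6214 against 579.8 and 506 (log2 3.58, SE 0.09, adjusted p = 4.4e-13). Gsta3, a glutathione S-transferase, read 652, 740.0 and 798 in DEX and 57.3 and 65.6 in CI (log2 3.27, SE 0.10, adjusted p = 5.1e-12). Pdk4 encodes the kinase that switches off pyruvate dehydrogenase and spares glucose. Its intensities were 3893, 2414 and 3248 in DEX, 338 and 313 in CI and 530.3, 451 and 431 in control (log2 3.20, SE 0.15, adjusted p = 3.3e-10). Cabp4 (a calcium-binding protein), Ctla2a (an inhibitor-like relative of cathepsins) and Clca3a1 (a chloride channel accessory protein) completed the 12 largest increases, at log2 values of 3.16, 3.08 and 2.96.

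**Figure D2:**
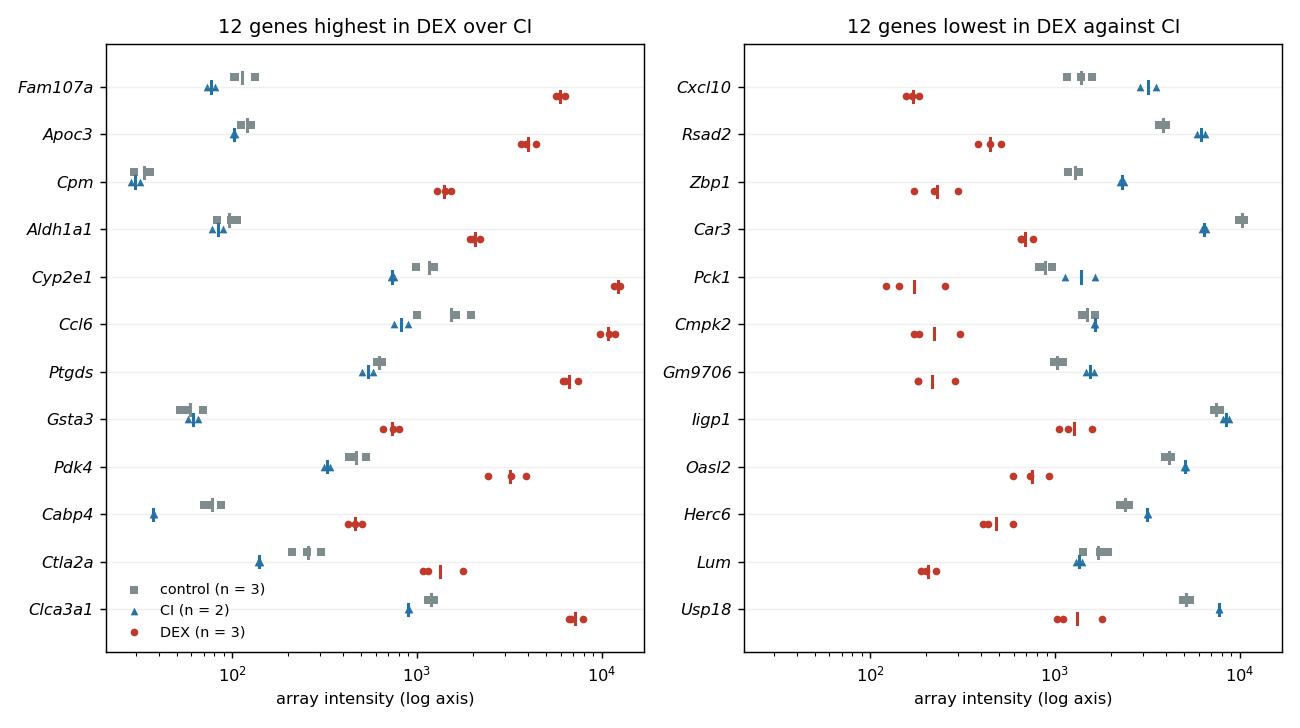
Array intensity on a log axis for the 12 genes highest in DEX over CI (left) and the 12 lowest (right), with 1 point per array and a vertical tick at each group mean, for control (grey squares, n = 3), CI (blue triangles, n = 2) and DEX (red circles, n = 3). DEX arrays lie beyond both CI arrays for all 24 genes, as the rule for naming them required. Fam107a runs from 73.1 in CI to 6301 in DEX and Cxcl10 from 3536 in CI to 155.7 in DEX.

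Known targets of the glucocorticoid receptor were mostly higher in DEX: 15 of 26 tested members (57.7%, against 17.0% of all tested genes) passed as higher and 2 as lower, with a list median of 0.86 on the log2 scale. The same list had a median of 0.88 in DEX over control and -0.01 in CI over control, comparisons that share the control arrays. Fkbp5, a receptor co-chaperone and feedback inhibitor, read 8128, 7961 and 8045 in DEX and 1139 and 1150.3 in CI (log2 2.80, SE 0.06, adjusted p = 2.1e-13). Control arrays were at 1283, 1177 and 1183, close to CI. Tsc22d3, which encodes the anti-inflammatory protein GILZ, read 4146, 3579 and 4276 in DEX and 713 and 947 in CI (log2 2.26, SE 0.12, adjusted p = 1.1e-09). Mt2, a zinc-binding metallothionein, read 6702, 7221 and 7192 in DEX against 1380.0 and 1675 in CI (log2 2.20, SE 0.12, adjusted p = 2.1e-09). Sult1a1, a sulfotransferase, read 7732, 8064 and 7496 in DEX, 2196 and 1931 in CI and 4492, 4432 and 4329 in control (log2 1.91, SE 0.08, adjusted p = 7.3e-11). Here CI lay below control and DEX above it. The 2 members that were lower, Klf15 (log2 -1.04) and Tgm2 (log2 -1.50), encode a metabolic transcription factor and a transglutaminase, and both are named because their count is small.

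The receptor itself was lower in DEX. Nr3c1, the gene of the glucocorticoid receptor, read 1691, 1668 and 1604 in DEX and 2512 and 2223 in CI (log2 -0.51, SE 0.06, adjusted p = 1.5e-05). Of 10 tested genes for the receptor and steroid handling, 3 were higher and 4 lower, with a median of -0.06. Hsd11b1, which regenerates active glucocorticoid inside the cell, read 4693, 6138 and 4740.4 in DEX, 9972 and 10021 in CI and 6843, 7887 and 8633 in control (log2 -0.95, SE 0.11, adjusted p = 4.6e-06). The 3 groups did not overlap. H6pd, which supplies that enzyme with NADPH, moved the other way at 2439.9, 2189 and 2364 in DEX and 1118 and 1303 in CI (log2 0.94, SE 0.10, adjusted p = 4.6e-06). Nr3c2, the mineralocorticoid receptor that also binds glucocorticoids, was at 209, 224 and 218 in DEX and 157 and 147 in CI (log2 0.47). Its control arrays read 220.1, 230.0 and 221, so DEX and control were alike and CI stood below both. Stip1, which hands clients between the chaperones HSP70 and HSP90, was lower in DEX than in CI (log2 -0.50). Over control, its log2 difference was -0.07 in DEX, which did not pass, and 0.42 in CI, which did.

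The promoters of these genes were searched for the glucocorticoid response element, the half-sites GNACA and TGTNC separated by 3 bases, which reads the same on both strands, in RefSeq windows of 300 bases (250 before and 50 after a start, GRCm38.p6). The element occurred in 0.475% of 32851 windows. Of tested genes with a window, 53 of 12486 (0.424%) had a match. Among these 53 genes 14 (26.4%) were higher in DEX and 4 (7.55%) lower, against 17.0% and 16.9% of all tested genes, with a median log2 of -0.01. Of the receptor targets, 2 of the 20 with a window matched, Sgk1 and Mt1. The stretches of 80 bases below are shown because the leading gene Fam107a, the targets Sgk1 and Mt1, and the FOXO target Txnip each hold a match upstream of the start and were higher in DEX. Sgk1 was chosen after its values were seen. They are printed 5' to 3' on the gene's strand, with the matching bases in capitals.
Fam107a: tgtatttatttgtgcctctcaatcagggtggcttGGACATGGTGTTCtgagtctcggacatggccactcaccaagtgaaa
Sgk1: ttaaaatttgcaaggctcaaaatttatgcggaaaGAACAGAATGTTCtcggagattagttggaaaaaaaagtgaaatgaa
Mt1: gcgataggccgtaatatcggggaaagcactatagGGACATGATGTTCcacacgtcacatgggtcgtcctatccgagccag
Txnip: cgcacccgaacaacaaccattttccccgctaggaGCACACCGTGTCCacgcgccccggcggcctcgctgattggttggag
Fam107a lies on chr14:8309852-8309931 (minus strand), and its match covers bases -120 to -108 before the start (-118 to -106 from a second annotated start). Sgk1 lies on chr10:21993668-21993747 (plus strand), with the match at -188 to -176 before 1 of its annotated starts. Mt1 lies on chr8:94178961-94179040 (plus strand), with the match at -94 to -82. Txnip lies on chr3:96557751-96557830 (plus strand), with the match at -172 to -160. Sgk1 encodes a kinase induced by glucocorticoids and read 1869, 1889 and 1152 in DEX and 432 and 380.5 in CI (log2 1.94). Mt1, a metallothionein, read 15166, 16361 and 16776 in DEX and 5404 and 6059.6 in CI (log2 1.49). A match is a description of the letters in the window, and binding was not measured.

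On the other side, antiviral genes induced by interferon were lower in DEX almost throughout: 34 of 36 tested interferon-stimulated genes (94.4%, against 16.9% of all tested genes) passed as lower and 0 as higher, with a median of -1.55. The members that did not pass were Irf1 (log2 -0.0042) and Oasl1 (log2 -0.18). The list's median was -1.46 in DEX over control and 0.23 in CI over control. Rsad2 encodes viperin, which blocks viral replication, and read 385, 509.6 and 443 in DEX, 5883 and 6473 in CI and 3865, 4001 and 3677 in control (log2 -3.75, SE 0.10, adjusted p = 5.9e-13). No DEX array came near the other groups. Zbp1, a sensor of Z-form nucleic acids, read 171, 298 and 222 in DEX and 2376 and 2237 in CI (log2 -3.27, SE 0.14, adjusted p = 2.4e-10). Cmpk2, a mitochondrial nucleotide kinase, read 172, 307 and 184 in DEX and 1655 and 1622 in CI (log2 -2.85, SE 0.16, adjusted p = 3.1e-09). Oas1a and Oas2 make the oligoadenylate signal that activates RNase L. Oas1a read 566, 636 and 531 in DEX and 3266 and 3488 in CI (log2 -2.52, SE 0.08, adjusted p = 5.1e-12), and Oas2 read 374, 342 and 372 and 1768 and 1782 (log2 -2.24, SE 0.07, adjusted p = 9.8e-12). Iigp1 (an immunity-related GTPase), Oasl2, Herc6 (a ligase of the ubiquitin-like ISG15 pathway), Usp18 (which removes ISG15) and the predicted gene Gm9706 were also among the 12 largest decreases, at log2 values of -2.74, -2.74, -2.71, -2.59 and -2.78. Near-identical family members among these genes may share probes, which was not tested.

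DEX replicate 2 was the highest of the 3 DEX arrays for 32 of the 36 interferon-stimulated genes, against 43.8% of all tested genes. It is also the array with the bright bacterial spikes. Without it, 34 of 36 were again lower, with a median of -1.66. In this bulk RNA, fewer cells of a type and less RNA per cell cannot be told apart. Among macrophage markers 1 of 14 was higher and 3 were lower in DEX (median -0.01). Mpeg1, a pore-forming protein of macrophages that interferon also induces, read 261, 283 and 245 in DEX and 1342 and 1266 in CI (log2 -2.24). Itgb2, the leukocyte integrin chain, and Cd74, the MHC class II chaperone, were lower at log2 values of -0.82 and -0.24, and the lipopolysaccharide co-receptor Cd14 was higher at 1.58. Cd74 passed narrowly (adjusted p = 0.04) and did not pass in 7 alternatives, with adjusted p-values of 0.050 to 0.175. The macrophage-defining Adgre1 read 112, 101 and 108 in DEX and 106 and 117 in CI, not far above the dim limit of 51.6. The part of these cells in the interferon result was not tested.

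The interferon-stimulated response element was searched as GAAA, any 2 bases and GAAA again, on both strands in the same windows. It occurred in 3.44% of 32851 windows and in 448 of 12486 tested genes (3.59%), of which 66 (14.7%) were higher in DEX and 115 (25.7%) lower, against 17.0% and 16.9% of all tested genes, with a median log2 of -0.02. Of the interferon-stimulated genes with a window, 15 of 27 (55.6%) held it, and so did 3 of 11 genes of MHC class I presentation (27.3%). The glucocorticoid element was found in 0 of the 27, but it was rare, at 0.424% of tested genes, so this count cannot set the lists apart. The interferon element was in turn found in 2 of the 20 glucocorticoid receptor targets with a window (10%). Sgk1 was among these, with the match before another of its annotated starts. The promoters of Cxcl10, Rsad2 and Oas1a are shown as leading decreases with a match upstream of the start, and that of Ifit3, chosen after its values were seen, as a second example with separate matches.
Cxcl10: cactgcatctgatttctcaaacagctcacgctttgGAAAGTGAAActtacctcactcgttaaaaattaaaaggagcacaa
Rsad2: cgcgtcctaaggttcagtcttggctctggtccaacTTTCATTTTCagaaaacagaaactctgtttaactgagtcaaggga
Oas1a: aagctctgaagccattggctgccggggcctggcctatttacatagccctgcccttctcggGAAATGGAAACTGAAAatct
Ifit3: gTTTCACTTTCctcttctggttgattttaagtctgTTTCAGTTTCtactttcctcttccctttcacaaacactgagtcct
Capitals mark the element, read on the opposite strand in Rsad2 and Ifit3. Cxcl10 lies on chr5:92349058-92349137 (minus strand), Rsad2 on chr12:26456528-26456607 (minus strand), Oas1a on chr5:120907526-120907605 (minus strand) and Ifit3 on chr19:34583372-34583451 (plus strand). In Oas1a, 2 matches overlap at -20 to -11 and -14 to -5, and Ifit3 has 2 matches at -156 to -147 and -122 to -113. Ifit3, an antiviral protein that binds IFIT1, read 2034, 2915 and 1927 in DEX and 12150.3 and 13613 in CI (log2 -2.50).

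Antigen presentation by MHC class I followed with smaller changes, 9 of 14 genes lower and 1 higher (Erap1, log2 0.24), at a median of -0.41 (-0.25 with every probe set on its own). The largest were subunits of the immunoproteasome, which cuts peptides for presentation. Psmb9 read 368, 435 and 366 in DEX, 1133 and 1252 in CI and 1392, 1347 and 1335 in control (log2 -1.58, SE 0.08, adjusted p = 6.4e-10). Psmb8 read 744, 964 and 768 in DEX and 2167 and 2195 in CI (log2 -1.39, SE 0.09, adjusted p = 9.1e-09). Tap1 and Tap2, which carry the peptides into the endoplasmic reticulum, were lower at log2 values of -1.13 and -0.76, as was Nlrc5, the transcriptional activator of these genes, at -1.13. Of the 3 tested probe sets of Tap1, 1 passed as lower and 0 as higher. DEX replicate 2 was the highest DEX array for 11 of the 14.

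**Figure D3:**
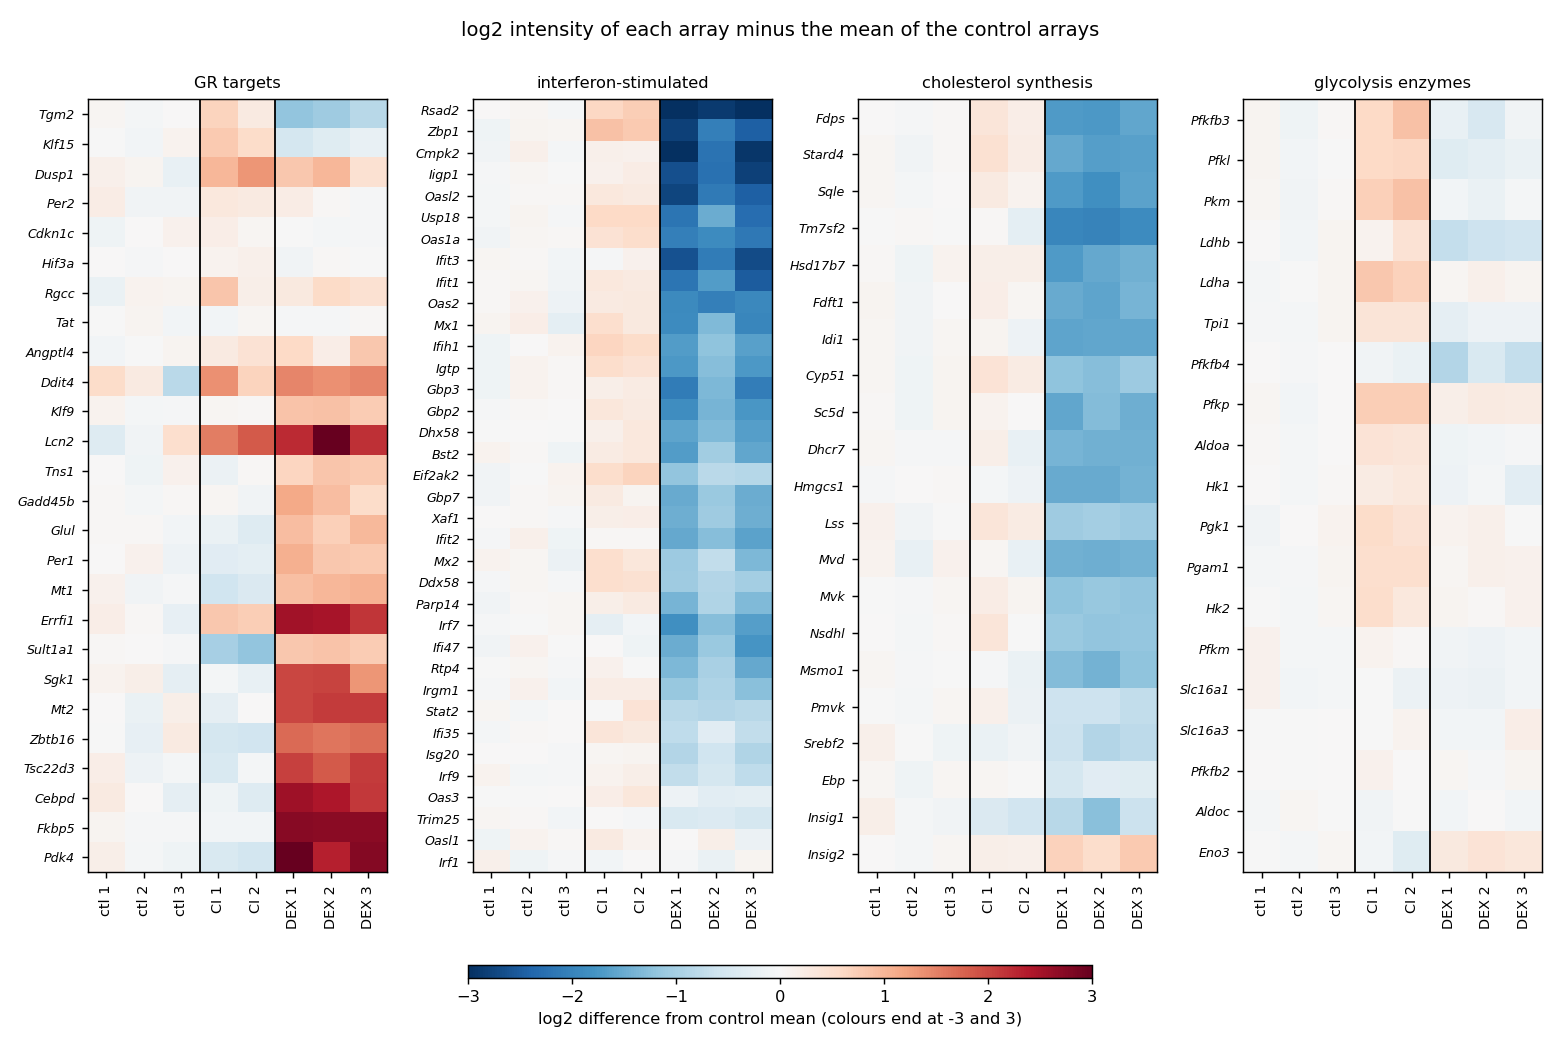
Log2 intensity (plus 16) of each array minus the mean of the 3 control arrays, for the members of 4 lists in rows, with control, CI and DEX arrays in columns. Red is above and blue below the control mean, and colours end at -3 and 3. Interferon and cholesterol genes are mostly blue in DEX, at list medians of -1.46 and -1.43, and mostly pale in CI, at 0.23 and 0.06. Glycolysis enzymes are mostly pale in both groups, at -0.08 in DEX and 0.39 in CI. Many glucocorticoid receptor targets are red in DEX, where the list's median is 0.88.

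Of 18 chemokines 8 (44.4%) were lower in DEX and 3 (16.7%, close to the 17.0% of all tested genes) were higher, with a median of -0.17. Without DEX replicate 2 the median was -0.11, and without CI replicate 2 the number lower was 5. The widest gap was in Cxcl10, which draws T cells and is induced by interferon. It read 156, 184 and 169 in DEX, 2872 and 3536 in CI and 1388, 1581 and 1159 in control (log2 -4.11, SE 0.15, adjusted p = 2.5e-11). CI was thus above control and DEX below it. Cxcl5, a neutrophil attractant, read 77.8, 65.9 and 52.1 in DEX and 383 and 379 in CI (log2 -2.30, SE 0.20, adjusted p = 3.0e-07). Cxcl9 was lower at low intensities, 121, 69.6 and 126 in DEX and 263 and 238 in CI (log2 -1.16). Ccl9, a relative of Ccl6, was instead higher, with 3663, 2964 and 3707 in DEX, 638 and 541 in CI and 1588, 1352 and 1043 in control (log2 2.51, SE 0.15, adjusted p = 4.0e-09).

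Targets of NF-kappaB, the main inflammatory transcription factor, passed no more often than other genes, with 3 of 18 (16.7%) higher and 3 (16.7%) lower, against 17.0% and 16.9% of all tested genes (median 0.03). Il6, an inflammatory cytokine, read 51.8, 77.2 and 38.4 in DEX, 296 and 336 in CI and 149.9, 160.2 and 108 in control, all at low intensity (log2 -2.24, SE 0.20, adjusted p = 4.1e-07). Nfkbia, which holds NF-kappaB in the cytoplasm, read 8173, 7899.8 and 7872 in DEX and 5026 and 4528 in CI (log2 0.74, SE 0.07, adjusted p = 1.4e-06), and Tnfaip3, another inhibitor of the pathway, read 642, 569 and 579 and 393 and 359.9 (log2 0.64). Vcam1, an adhesion molecule, was lower (log2 -0.54). The acute-phase list had 3 of 13 higher (5 without control replicate 3 or without TNF replicate 3) and 6 lower, with a median of 0.14 (0.07 with every probe set on its own). Haptoglobin (Hp), which binds free haemoglobin, read 19028, 19792 and 19798 in DEX and 5517 and 5852 in CI (log2 1.78, SE 0.08, adjusted p = 1.7e-10). Its DEX readings were not far below the highest intensities of those arrays, 22501 to 24380, so the difference may be understated. Serpina3n and Saa3 were also higher, at log2 values of 0.96 and 0.82, although Saa3 was uneven, at 621, 576 and 1139.9 in DEX and 415 and 409 in CI. Orm1 and Orm2, the acid glycoproteins, and Hpx, which binds haem, were lower at -0.92, -1.07 and -1.10.

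Feedback genes of the ERK pathway were lower in DEX at several members and not as a whole list, with 9 of 26 lower, 3 higher and a median of -0.07. Dusp6, a phosphatase that switches off ERK, read 134, 176 and 89.2 in DEX, 671 and 607 in CI and 177, 202 and 194 in control (log2 -2.18, SE 0.17, adjusted p = 1.2e-07). Dusp4, a nuclear relative, read 178, 198 and 159 in DEX, 879.8 and 1121 in CI and 309.6, 314 and 346 in control (log2 -2.38, SE 0.10, adjusted p = 2.5e-10). The gap for both was mostly a rise in CI, at log2 values over control of 1.66 and 1.57, with DEX at -0.52 and -0.81. Spry4, another inhibitor of receptor tyrosine kinase signalling, showed 245, 254 and 208 in DEX and 637 and 850.0 in CI (log2 -1.58). Errfi1, an inhibitor of the EGF receptor that is also a glucocorticoid target, was higher in DEX at 3572, 3501 and 2777, against 1092 and 1035 in CI and 705, 629 and 518 in control (log2 1.60, SE 0.12, adjusted p = 9.5e-08). Fosl2, an AP-1 subunit, was higher too (log2 0.90).

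Genes of insulin signalling were divided, with 11 of 31 higher (35.5%) and 12 lower (38.7%), at a median of -0.08. Without CI replicate 2 the number higher was 7. The insulin receptor gene Insr read 904, 915 and 960.1 in DEX, 645 and 565 in CI and 849, 770.3 and 822 in control (log2 0.60, SE 0.07, adjusted p = 5.2e-06). Over control, the log2 difference was -0.42 in CI and 0.18 in DEX. The mean over all of the gene's probe sets gave a smaller difference that did not pass (log2 0.11, adjusted p = 0.103). The receptor substrates moved in opposite directions, Irs1 at 2305, 2069 and 2363 in DEX and 3744 and 3506 in CI (log2 -0.69, SE 0.07, adjusted p = 3.1e-06), and Irs2 at 590.5, 608 and 602 in DEX and 389 and 386 in CI (log2 0.61, SE 0.06, adjusted p = 7.4e-07). Igf1r, the receptor of insulin-like growth factor, was higher (log2 0.93), and Grb14, an inhibitor of the insulin receptor, was lower at 514, 502 and 373 in DEX and 1226 and 1102 in CI (log2 -1.31, SE 0.11, adjusted p = 2.1e-07). For Grb14 the control arrays, at 736, 714 and 696, lay between the groups. Slc2a4, the insulin-responsive glucose transporter GLUT4, read 1339, 1355 and 1669 in DEX, 2292 and 2367 in CI and 2722, 2380.2 and 2515 in control (log2 -0.68, SE 0.09, adjusted p = 1.9e-05). Slc2a1, the basal glucose transporter GLUT1, was lower as well (log2 -0.77).

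FOXO targets, which insulin holds down through AKT, were higher in DEX for 13 of 23 members and lower for 6, at a median of 0.42 (0.27 with the mean of all probe sets). The list's medians against control were 0.27 for DEX and -0.16 for CI. Beside Pdk4, Txnip was higher, an inhibitor of glucose uptake and of thioredoxin, with 12352, 9791 and 11075 in DEX and 4376 and 4195 in CI (log2 1.36, SE 0.12, adjusted p = 2.7e-07). Pnpla2, the first lipase of triglyceride breakdown, read 14305, 13239.9 and 14967 in DEX, 6485 and 7037 in CI and 10108, 9749 and 10366 in control (log2 1.07, SE 0.07, adjusted p = 2.0e-08). DEX was above and CI below control. Foxo3 itself was higher (log2 1.01). Pck1, the PEPCK enzyme that adipocytes use to make glycerol phosphate, went the other way, with 144, 121 and 253 in DEX, 1640.1 and 1139 in CI and 962, 823 and 866 in control (log2 -2.94, SE 0.21, adjusted p = 3.7e-08). The DEX arrays were uneven, with replicate 3 the highest, and all lay far below CI.

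**Figure D4:**
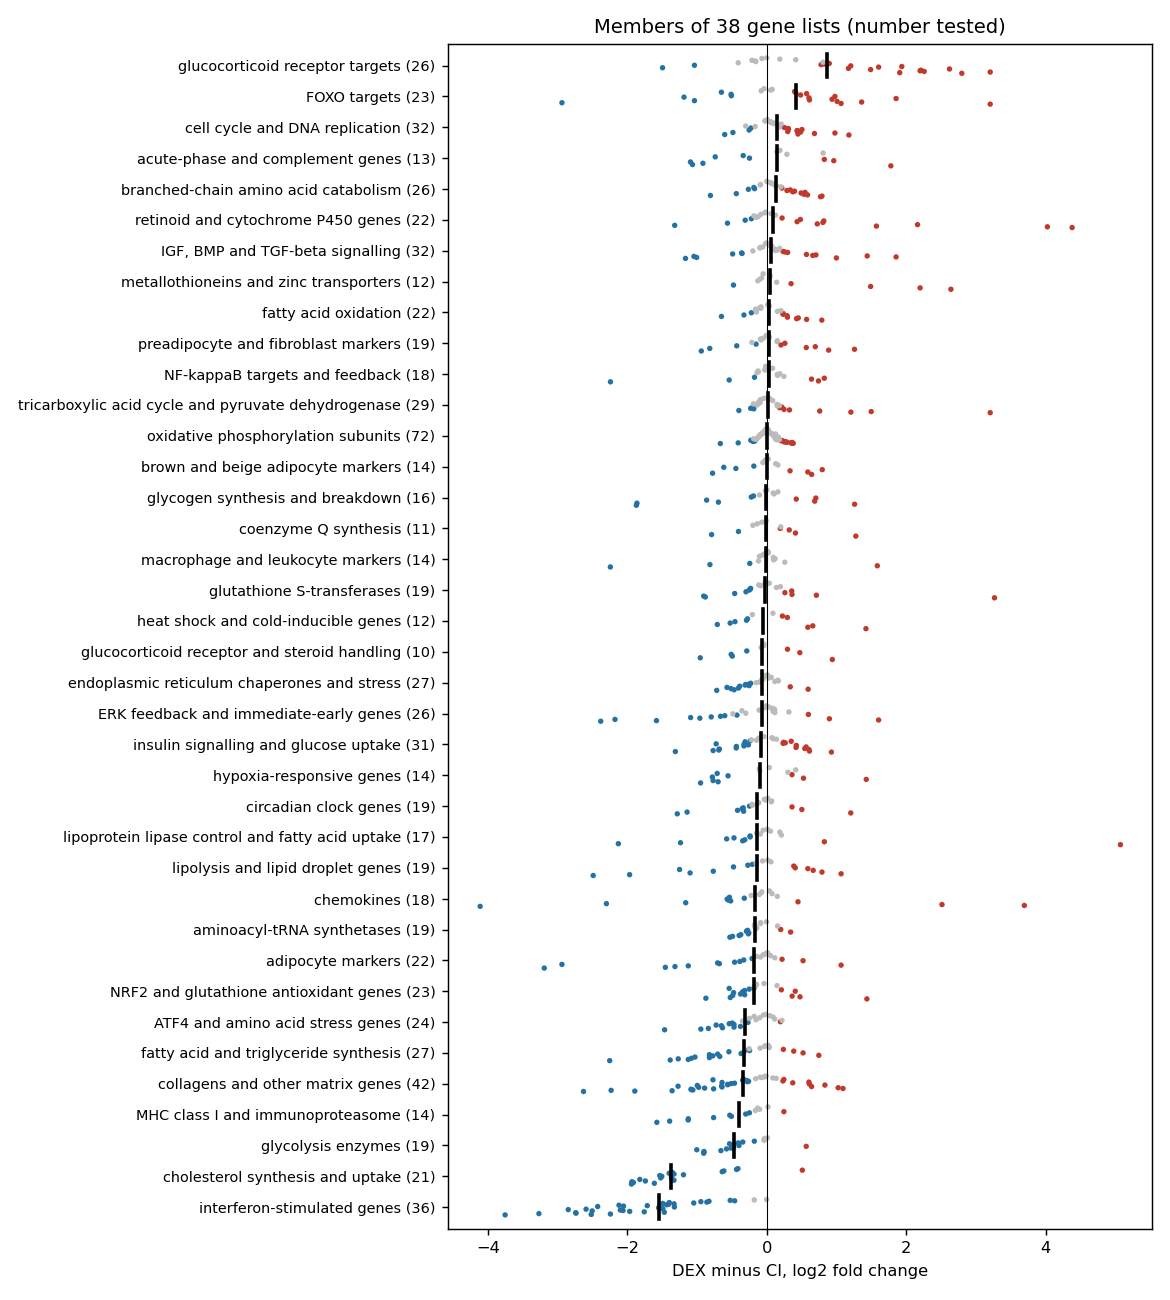
Log2 fold change of DEX over CI for each tested member of 38 gene lists, 1 point per gene, with the list's median as a black bar and the number tested in brackets. Red points were higher in DEX, blue points lower, and grey points did not pass. Medians run from -1.55 for interferon-stimulated genes to 0.86 for glucocorticoid receptor targets, and 72 oxidative phosphorylation subunits centre on 0.0038.

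Glycolysis enzymes were lower in DEX than in CI, 14 of 19 tested, with Eno3 (log2 0.56) the 1 higher and a median of -0.47. Against control the list's median was -0.08 in DEX and 0.39 in CI. Pfkfb3, which makes the activator of phosphofructokinase, read 810.2, 678 and 882 in DEX, 1448 and 1749 in CI and 1007, 865 and 967 in control (log2 -1.005, SE 0.11, adjusted p = 3.1e-06). Pkm, pyruvate kinase, read 4333, 4029 and 4432 in DEX, 7596 and 8406 in CI and 4813, 4274 and 4728 in control (log2 -0.90, SE 0.08, adjusted p = 1.9e-07). For Pkm the DEX and control arrays overlapped while CI stood apart. Pfkl, the liver-type phosphofructokinase, was lower at 1551, 1629.6 and 1749 against 3063 and 3111 (log2 -0.90, SE 0.07, adjusted p = 5.9e-08). The lactate dehydrogenase subunits differed in where control lay. Ldha read 4328, 4686 and 4418 in DEX, 7356 and 6796 in CI and 4024, 4128 and 4398 in control, whereas Ldhb read 2053, 2179 and 2257, 3624 and 4523 and 3368, 3181 and 3558, with log2 differences of -0.66 and -0.90.

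Hypoxia-responsive genes had 3 of 14 higher (5 without control replicate 3) and 6 lower, with a median of -0.10. P4ha1, a collagen prolyl hydroxylase, was lower at 709, 667 and 691 in DEX and 1299 and 1393 in CI (log2 -0.95, SE 0.06, adjusted p = 9.8e-09), as was Hif1a, the hypoxia-inducible factor (log2 -0.70). Adm, the vasodilator peptide adrenomedullin, was higher at 969, 1226 and 676 in DEX and 345 and 328 in CI (log2 1.43, SE 0.16, adjusted p = 5.0e-06). Glycogen genes had 4 of 16 higher and 6 lower (median -0.01). Ppp1r3d and Ppp1r3b, subunits that target a phosphatase to glycogen, were among the largest decreases. Ppp1r3c, another such subunit in the list, was not among the 5 members with the smallest adjusted p. Ppp1r3d read 244, 263 and 315 in DEX and 1068 and 1010.1 in CI, and Ppp1r3b read 122, 99.1 and 135 and 575 and 385, with log2 differences of -1.87 and -1.86. Phkg1, a catalytic subunit of phosphorylase kinase, was higher, at 177, 170.5 and 187 in DEX, 73.6 and 57.4 in CI and 163, 148 and 131 in control (log2 1.26).

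Cholesterol synthesis was lower in DEX at nearly every measured step, with 20 of 21 genes lower, 1 higher and a median of -1.37. Relative to control the median was -1.43 in DEX and 0.06 in CI. Fdps, which makes farnesyl diphosphate, read 2642, 2582 and 2915 in DEX, 10998 and 9934 in CI and 8639, 8368 and 8772 in control (log2 -1.94, SE 0.08, adjusted p = 6.6e-11). Sqle, the squalene epoxidase, read 1378, 1255 and 1477 in DEX and 5504 and 4900.1 in CI (log2 -1.91, SE 0.08, adjusted p = 2.5e-10). Fdft1, squalene synthase, read 1146, 1085 and 1232 in DEX and 3736 and 3389 in CI (log2 -1.61, SE 0.07, adjusted p = 2.5e-10). Stard4, a sterol carrier, and Hsd17b7, a late enzyme of the pathway, were lower at log2 values of -1.93 and -1.74. All DEX arrays lay below both CI arrays for these 5 genes, and the CI mean lay above the control mean. The difference of CI from control passed the limma test for Fdps and Stard4 only. For Sqle, Fdft1 and Hsd17b7 it did not (adjusted p = 0.14, 0.30 and 0.19). The 1 higher member was Insig2, a protein that retains the sterol sensor in the endoplasmic reticulum (log2 0.51).

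Fatty acid and triglyceride synthesis had 16 of 27 genes lower, 4 higher and a median of -0.33. Gpat3, which starts glycerolipid synthesis, read 1381, 1417 and 1316 in DEX, 6407 and 6790.5 in CI and 4236, 4368 and 4162 in control (log2 -2.25, SE 0.09, adjusted p = 4.7e-11). Acly, which makes acetyl-CoA from citrate, read 3300.3, 3226 and 3271 in DEX and 9221 and 7946 in CI (log2 -1.39, SE 0.09, adjusted p = 7.5e-09). Dgat2, the last step of triglyceride synthesis, read 4720.4, 5047 and 5253 in DEX and 10551 and 11344 in CI (log2 -1.13, SE 0.07, adjusted p = 9.6e-09). Acss2, which makes acetyl-CoA from acetate, and Gpd1, which makes glycerol phosphate, were lower at log2 values of -1.27 and -1.08. Srebf1, the transcription factor of lipogenic genes, went the other way, at 2495, 2583 and 2490.1 in DEX, 1662 and 1349 in CI and 1899.5, 1868 and 1904 in control (log2 0.75, SE 0.08, adjusted p = 1.6e-06).

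Genes of lipolysis and the lipid droplet were divided, with 6 of 19 higher and 8 lower (median -0.15). G0s2, the inhibitor of the lipase encoded by Pnpla2, read 926, 957 and 1133 in DEX, 6322 and 5141 in CI and 3005, 2630.5 and 2814 in control (log2 -2.49, SE 0.10, adjusted p = 1.2e-10). The lipase was thus higher and its inhibitor lower in DEX, and control lay between the groups for both. Mgll, which releases the last fatty acid, read 391, 409.8 and 431 in DEX and 1677 and 1628 in CI (log2 -1.97, SE 0.09, adjusted p = 2.5e-10). Aqp7, the glycerol channel, was lower (log2 -1.10) and Plin3, a droplet coat protein, higher (log2 0.79). Among genes that control lipoprotein lipase and fatty acid uptake, 2 of 17 were higher and 8 lower (5 without CI replicate 2), with a median of -0.15. Beside Apoc3, the higher gene was Slc27a1, a fatty acid transporter, at 860.1, 789 and 927 in DEX, 465 and 488 in CI and 932, 825 and 776 in control (log2 0.83, SE 0.08, adjusted p = 1.8e-06). Angptl8, an insulin-induced inhibitor of lipoprotein lipase, read 69.8, 82.1 and 77.9 in DEX, 391 and 386 in CI and 164, 141 and 151 in control (log2 -2.13, SE 0.07, adjusted p = 1.6e-11). Apoe, an apolipoprotein, was lower in DEX (log2 -1.24).

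Among the adipocyte markers that were lower, Car3, a carbonic anhydrase abundant in fat cells, read 653, 658 and 758 in DEX, 6257 and 6574 in CI and 10572, 10318 and 9927 in control (log2 -3.19, SE 0.07, adjusted p = 1.3e-13). Both regimens lay below control, DEX the further. Pparg and Cebpa, the transcription factors that maintain adipocytes, were lower in DEX by smaller amounts, at log2 values of -0.39 and -0.46. Tmem120a, a nuclear envelope protein of adipocytes, and Nrg4, a secreted growth factor, were lower at -1.46 and -1.32. Leptin (Lep) was dim in both groups, at 59.1, 58.3 and 57.9 in DEX and 73.7 and 66.9 in CI (adjusted p = 0.015), and without CI replicate 1 its adjusted p was 0.173.

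Of 72 oxidative phosphorylation subunits, 10 (13.9%) were higher and 7 (9.72%) lower, against 17.0% and 16.9% of all tested genes, with a median of 0.0038. Without CI replicate 2, 5 were higher and 2 lower, and the number lower was 2 without CI replicate 1 and 3 without DEX replicate 1. Ndufa7 of complex I, for example, read 7633, 7980.1 and 7787 in DEX and 6147 and 5847 in CI (log2 0.38), and Ndufb4 of the same complex was lower (log2 -0.67). In the tricarboxylic acid cycle and pyruvate dehydrogenase list, 8 of 29 (27.6%) were higher and 4 (13.8%) lower, with a median of 0.01, and without CI replicate 1 the number higher was 5. Idh2, the mitochondrial NADP-linked isocitrate dehydrogenase, read 3108, 3352 and 3363 in DEX, 1389 and 1431 in CI and 2185, 1905 and 1997 in control (log2 1.21, SE 0.07, adjusted p = 8.0e-09). Pdp1, the phosphatase that opposes Pdk4, was higher alongside it, at 1382, 1193 and 962 in DEX and 437 and 372 in CI (log2 1.50, SE 0.14, adjusted p = 7.9e-07). Fatty acid oxidation had 8 of 22 (36.4%) higher and 3 (13.6%) lower, with a median of 0.03, and without CI replicate 2 the number higher was 5. Acadm, the medium-chain acyl-CoA dehydrogenase, read 9228, 8189.7 and 9080.1 in DEX and 5047 and 5151 in CI (log2 0.79, SE 0.06, adjusted p = 1.5e-07), and Eci1 was higher at log2 0.57.

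Branched-chain amino acid breakdown had 11 of 26 higher and 5 lower (3 without CI replicate 2) at a median of 0.13 (0.07 with every probe set on its own), with medians against control of -0.06 in DEX and -0.19 in CI. The E1 subunits of the rate-limiting dehydrogenase moved apart. Bckdha read 2397, 2770.2 and 2669 in DEX, 1514 and 1487 in CI and 2239, 2126 and 2350.2 in control, and Bckdhb read 2196, 2589 and 2499.6, 4249 and 4262 and 3353, 3239 and 3755, with log2 differences of 0.79 and -0.81. Bckdk, the kinase that inhibits this complex, was higher (log2 0.58), as was Aldh6a1 of valine breakdown (log2 0.77). Coenzyme Q genes had 4 of 11 higher and 2 lower (median -0.01). Coq8a, an atypical kinase-like protein of the synthesis complex, read 1407, 1471 and 1665 in DEX, 652 and 579 in CI and 919, 901 and 947 in control (log2 1.28, SE 0.07, adjusted p = 4.2e-09). Coq10b, which binds coenzyme Q in the inner membrane, was lower (log2 -0.79).

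The NRF2 and glutathione list had 13 of 23 lower and 5 higher (median -0.18). Gpx1, the main cytosolic glutathione peroxidase, was the furthest from CI, at 6941, 6814 and 6949 in DEX, 2616 and 2470.2 in CI and 4107, 3903 and 4288 in control (log2 1.44, SE 0.07, adjusted p = 3.5e-10). Sod1 and Gpx4 were also higher, at log2 values of 0.48 and 0.36, while Sod3, the secreted superoxide dismutase, and Nfe2l2, which encodes NRF2, were lower at -0.87 and -0.52. Glutathione S-transferases had 5 of 19 higher and 7 lower (4 without CI replicate 1), with a median of -0.03. Beside Gsta3, Mgst3 was higher (log2 0.71), and Gstz1 and Gstt3 were lower at -0.88 and -0.91. The retinoid and cytochrome P450 list had 10 of 22 higher and 4 lower (median 0.09). Cyp26b1, which degrades retinoic acid, read 1429, 1006 and 1526 in DEX and 279 and 277 in CI (log2 2.16, SE 0.14, adjusted p = 1.4e-08), so it was higher together with the synthetic enzyme Aldh1a1. Cyp1b1 read 7872, 7107 and 6279.8 in DEX and 2409.8 and 2318 in CI (log2 1.57, SE 0.09, adjusted p = 3.3e-09), and Rdh11, a retinal reductase, was lower (log2 -1.32).

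Metallothioneins and zinc transporters had 4 of 12 higher and 1 lower (median 0.04). Slc39a14, a zinc and manganese importer also known as ZIP14, read 2995, 2449 and 2964 in DEX, 422 and 447 in CI and 450.4, 451 and 506 in control (log2 2.64, SE 0.13, adjusted p = 6.6e-10). The CI arrays lay just below control, so DEX was the group apart. The 1 lower member was the zinc importer Slc39a10 (log2 -0.48).

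Amino acid stress genes controlled by ATF4 had 12 of 24 lower (7 without CI replicate 2) and 1 higher, Slc6a9 (log2 0.19), at a median of -0.31. Against control the median was -0.01 in DEX and 0.29 in CI. Cth, which makes cysteine, read 512, 585 and 471 in DEX, 1370.4 and 1569 in CI and 638, 578 and 561 in control (log2 -1.47, SE 0.09, adjusted p = 7.7e-09). The DEX arrays were near control and the CI arrays above both. Psph and Psat1 of serine synthesis were lower at log2 values of -0.95 and -0.47, and the arginine transporter Slc7a1 at -0.84. Aminoacyl-tRNA synthetases, which charge tRNAs, had 8 of 19 lower and 2 higher, Vars and Qars (median -0.17), and the widest decrease was in Aars (log2 -0.53). Chaperones of the endoplasmic reticulum had 11 of 27 lower (7 without CI replicate 1) and 2 higher, with a median of -0.07. Hspa5, the chaperone BiP, read 6839, 7329 and 6525 in DEX, 9985 and 9706 in CI and 7599, 7839 and 8138 in control (log2 -0.51, SE 0.07, adjusted p = 1.7e-05). Atf6, a sensor of misfolded protein, was 1 of the 2 higher (log2 0.59), with the disulfide isomerase Pdia4 (log2 0.34). Of the 3 probe sets of Atf6, 1 passed as higher and 1 as lower, and their mean did not pass (log2 0.12, adjusted p = 0.080). Heat shock and cold-inducible genes had 5 of 12 in each direction (3 higher without CI replicate 2; median -0.06), and Cirbp, a cold-inducible RNA-binding protein, stood out at 865, 889.5 and 758 in DEX, 318 and 287 in CI and 790.1, 691 and 581 in control (log2 1.42, SE 0.11, adjusted p = 7.1e-08).

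Matrix genes were lower for 25 of 42 members and higher for 9, at a median of -0.34 (-0.16 with every probe set on its own). Medians against control were -0.40 in DEX and -0.13 in CI. DEX replicate 1 was the highest DEX array for 30 of the 42 (71.4%, against 30.2% of all tested genes), and its part in the result was not tested. Some other lists leaned to 1 array too. DEX replicate 3 was highest for 77.3% of adipocyte markers and 70.4% of fatty acid and triglyceride synthesis genes, against 26% of all tested genes. DEX replicate 2 was highest for 69.4% of oxidative phosphorylation subunits, against 43.8%. Lum, a collagen-binding proteoglycan, read 188, 226 and 199 in DEX, 1397 and 1291 in CI and 1944, 1752 and 1425 in control (log2 -2.63, SE 0.11, adjusted p = 2.4e-10). Dpt, dermatopontin, read 406, 608 and 442 in DEX, 2257 and 2358 in CI and 3417, 3307 and 2614 in control (log2 -2.23, SE 0.13, adjusted p = 5.7e-09). Col15a1 and Nid2 of the basement membrane read 198, 239.9 and 275 and 307, 284 and 280.1 in DEX against 883 and 956 and 822 and 721 in CI, and Col5a2, a fibrillar collagen, was lower at log2 -1.06. Preadipocyte and fibroblast markers had 6 of 19 higher (3 without CI replicate 2) and 4 lower, with a median of 0.03. Their summed intensity was 48951 to 52726 in DEX and 49076 to 49664 in CI. Klf2, a factor that restrains adipogenesis, and S100a4 were higher at log2 values of 1.26 and 0.89, while Cd44, the hyaluronan receptor, and Pdgfrb were lower at -0.94 and -0.82.

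Growth factor genes of the IGF, BMP and TGF-beta families had 9 of 32 higher and 6 lower (median 0.06). The TGF-beta receptors moved apart, Tgfbr2 being higher at 2489, 2506 and 2583 in DEX and 1344 and 1175 in CI, and Tgfbr1 lower at 1019.5, 1102 and 1075 and 2395 and 2426 (log2 1.00 and -1.17). Igf1 was lower and its binding protein Igfbp3 higher, at log2 values of -1.01 and 1.85. Cell cycle genes had 12 of 32 higher and 4 lower (median 0.15, and 0.03 without CI replicate 2). Ccnd1, cyclin D1, read 2139, 1918 and 1876 in DEX, 931 and 802 in CI and 1360.0, 1305 and 1263 in control (log2 1.18, SE 0.08, adjusted p = 2.2e-08). Cdkn1b, the cyclin-dependent kinase inhibitor p27, was higher as well (log2 0.98), and Cdkn2c, another inhibitor, was lower (log2 -0.60). Clock genes had 3 of 19 higher and 7 lower (median -0.14, and -0.09 without CI replicate 1). Per1, a clock repressor and glucocorticoid target, read 1048, 868 and 860.2 in DEX and 382 and 400.0 in CI (log2 1.20, SE 0.11, adjusted p = 4.9e-07), and Dbp, a clock output factor, read 1029, 1298 and 1056 in DEX and 2835 and 2676 in CI (log2 -1.28, SE 0.09, adjusted p = 5.5e-08). Brown and beige markers had 4 of 14 in each direction (median 0.0001), and Ucp1, the uncoupling protein that defines brown fat, was low at 87.5, 81.1 and 79.8 in DEX and 80.6 and 87.9 in CI.

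Some genes lay on opposite sides of control in the 2 regimens. The DEX and CI comparisons below share the control arrays, and 27.6% of tested genes passed in DEX (14.0% higher, 13.6% lower) and 17.2% in CI (8.37% higher, 8.86% lower). With DEX above and CI below control, Rhou read 6804, 5865 and 5883 in DEX, 3399, 2766 and 2688 in control and 1409.7 and 1633 in CI, at log2 values over control of 1.07 and -0.94. Maf, a leucine-zipper transcription factor, was at 0.88 in DEX and -0.87 in CI, and Gulp1, an adaptor for engulfment of dying cells, at 0.90 and -0.89. Ccl6, Ccl9, Cabp4, Ctla2a and Sult1a1 completed these 8. With DEX below and CI above control, Pla2g2e, a secreted phospholipase, read 70.9, 93.0 and 104 in DEX, 219.6, 194 and 207 in control and 466 and 504 in CI, at log2 values over control of -1.09 and 1.17. Alcam, a cell adhesion molecule, was at -0.92 in DEX and 1.04 in CI. C9orf72, a regulator of membrane traffic and autophagy, was at -1.11 and 0.90. Tmigd1, BC023105, Cxcl10, Il6 and G0s2 were the others, and Tmigd1 was dim in DEX, at 27.1, 39.9 and 41.0.

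Others lay on the same side of control in both regimens with DEX the further. Map7d2, a microtubule-associated protein, read 517, 567 and 681 in DEX, 134 and 109 in CI and 67.3, 83.9 and 84.9 in control (log2 2.13, SE 0.12, adjusted p = 2.2e-09). Mpp1, a membrane scaffold protein, read 10393, 9434 and 9915 in DEX and 4927 and 4975 in CI (log2 1.00, SE 0.06, adjusted p = 7.5e-09). Trim47 and Errfi1 were likewise above control in both. Agtr2, the angiotensin II type 2 receptor, read 22.2, 22.8 and 24.8 in DEX, below the dim limit, 146 and 130.1 in CI and 235, 212 and 201 in control (log2 -1.97, SE 0.10, adjusted p = 1.1e-09). AW112010, an interferon-responsive transcript, read 220.4, 242 and 291 in DEX, 674 and 703 in CI and 1015, 1113 and 1208 in control (log2 -1.41, SE 0.10, adjusted p = 4.0e-08). Car3 and Dpt were the other genes below control in both.

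**Figure D5:**
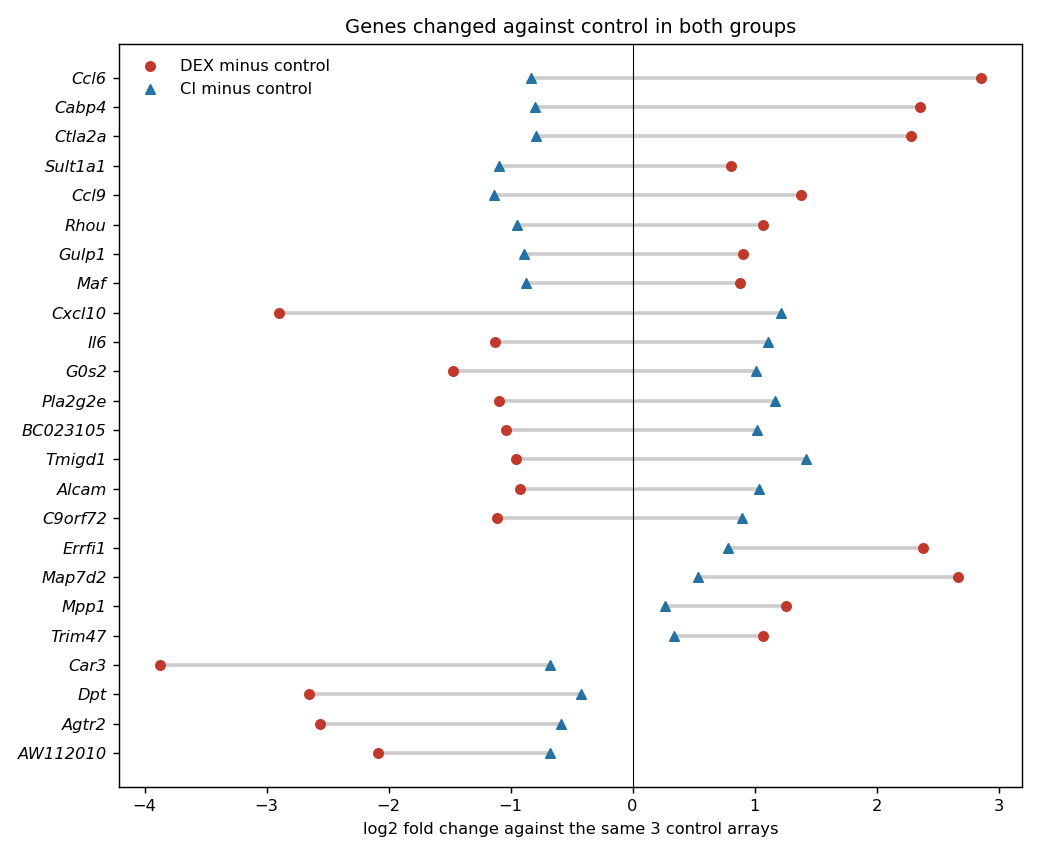
Log2 fold change over the same 3 control arrays in DEX (red circles) and CI (blue triangles) for 24 genes that passed in both and between the groups, chosen by that rule. The upper 8 lie above control in DEX and below it in CI, the next 8 the reverse, and the lowest 8 on 1 side in both. Ccl6 is at 2.86 in DEX and -0.83 in CI, and Cxcl10 at -2.90 and 1.21.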

How the data were processed

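RNA of 3T3-L1 adipocytes was measured on 11 Affymetrix mouse arrays with 1 colour (3 control, 2 CI, 3 TNF and 3 DEX), and the authors deposited 1 intensity per probe set and array on a linear scale. The methods of probe summary and normalization are not given in the sources used here. Column medians lay between 124.5 and 129.5, and the log2 quartiles of the arrays differed by at most 0.0763, so the table was used without further scaling. All 11 value columns matched a sample title, and 0 were of no sample. The number of arrays limits the precision.

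Probe sets were named through the platform annotation: 34945 had 1 gene symbol, 932 several and 9160 none, and 64 were controls. Of the 34945, 34741 matched RefSeq (GRCm38.p6) by gene ID. Each gene was represented by its brightest probe set, by the mean of the 11 arrays, and genes below the 25th percentile of the mean log2 value over probe sets (51.6 as an intensity) were left out. limma 3.58.1 in R 4.3.3 was fitted to log2(intensity + 16), with a mean per group over all 11 arrays, eBayes, two-sided tests and Benjamini-Hochberg adjustment over 15626 genes. On this scale the change of a dim gene is understated. Tables were made with Python 3.11.15 and pandas 2.3.3. The fit was tested on simulated data.

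The comparison, gene lists and tests were chosen with earlier results of these data known. Named were the 12 highest and 12 lowest changes with groups that did not overlap, up to 5 members of each list with the smallest adjusted p, 18 genes of known roles, and genes that passed against control in both regimens, 16 in opposite directions and 8 in the same. Members outside this rule are named, after their values were seen, where a small count, a marker or a promoter called for it. Alternatives were the scaling, the added constant, the filter on dim genes, the choice of probe set, the arrays in the fit, an intensity trend, a replicate block and leaving out each array.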

Additional observations from a re-analysis of the deposited data

Results flagged for a closer look

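DEX replicate 2 was bright at control probe sets for bacterial RNAs that are spiked into the sample, which no gene comparison uses and which were above every control array. For Dap, the probe set DapX-3 read 512.8 there and 101 to 157.5 in the other arrays, DapX-M read 183.5 against 47.9 to 62.5, r2-Bs-dap-3 read 726.5 against 106.8 to 196.7, and r2-Bs-dap-M read 266.6 against 54.9 to 72.9. For Lys, LysX-3 read 188.8 against 56.2 to 69.8, and r2-Bs-lys-3 read 52.9 against 18.2 to 26.5. For Thr, ThrX-3 read 228 against 84.6 to 103.9, and r2-Bs-thr-3 read 235 against 82.6 to 102.7. Without this array 5201 genes passed between DEX and CI, against 5302 with it. The balance of directions moved, to 2464 higher and 2737 lower in DEX, from 2663 and 2639.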

How the results depend on the processing

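Testing every probe set on its own raised all 5 counts, since 27828 probe sets then entered in place of 15626 genes: 8833 passed, 4412 higher and 4421 lower in DEX, of which 346 and 394 were past 2-fold. Leaving out 1 array at a time gave 4131 to 5327 genes passed, 2004 to 2667 higher in DEX and 1986 to 2737 lower, with 195 to 214 and 229 to 248 past 2-fold. The lowest count came without CI replicate 1, which leaves 1 CI array whose spread is taken from the other groups. Deviations from the group means correlated at -0.285 to 0.341 between same-numbered arrays and -0.346 to 0.285 between different-numbered arrays of different groups. Among control, TNF and DEX arrays alone, same-numbered pairs reached 0.220 to 0.289 for number 1 and 0.056 to 0.341 for number 3. For number 2 they were at -0.166 to 0.018. These values do not settle whether the numbers pair the arrays. With the replicate block 5284 genes passed, 2679 higher and 2605 lower. The other alternatives kept each count within 1.5 times. Of 4463 values of 213 named genes under the alternatives, 4447 kept their direction and their side of the threshold. In 14, a gene was no longer past it (Coq10a, Nfe2l2, Atf6, Ccnd3, Cd74, Insr or Lep). Adipoq, which did not pass, turned to a log2 of -0.0002 with quantile normalization, and lay between -0.0084 (without DEX replicate 3) and 0.0217 with 1 array left out. The cause was not tested. Of 836 list medians under the alternatives 69 moved, and the report gives some of these beside their lists. They took the other sign in 29, in 11 lists whose reported medians were at most 0.0824 from 0. Among interferon-stimulated genes, 34 of 36 were lower whichever array was left out.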

Other observations

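Probe sets that the annotation gives no single gene symbol were tested in the same way and belong to no gene described above. Of 5954 bright enough, 945 passed between DEX and CI, 31 of them past 2-fold higher in DEX and 46 past 2-fold lower.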
